A study of Strongylocentrotus purpuratus and Patiria miniata with 4 samples.

Results

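The regions described here are sea urchin Tbrain (Tbr) peaks that lie in tight clusters. They are the peaks of the purple sea urchin Strongylocentrotus purpuratus whose summit, the base of strongest enrichment, has another summit within 1000 bp on the same scaffold. They were chosen by the summit positions of the deposited peak list, a measured value, and no other column entered the rule. The rule took 592 of the 3149 sea urchin peaks (18.8%), and 17126 peaks are in the lists of both species together. Neighbouring members at most 1000 bp apart were then chained, which gave 258 clusters on 176 of the 1199 scaffolds that hold a sea urchin peak. Each position below is a scaffold position counted from 1. No genome of the matching assembly was used, so no sequence or gene is named.

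ChIP-seq, the sequencing of chromatin pulled down with an antibody, was done on sea urchin embryos at mesenchyme blastula, 24 hours after fertilization, with a custom antibody against the sea urchin protein. Input chromatin of the same stage, sequenced with no antibody, was the background. A second pair of libraries came from the sea star Patiria miniata at hatched blastula, 30 hours after fertilization, with an antibody against its own Tbr. Embryos came from pools of 2 to 3 cultures mixed before immunoprecipitation, so there is 1 ChIP library and 1 input library per species. The labels name no genetic change and no treatment in any group, and cultures were kept at 15 °C. Whole embryos were used, so cell types are not separated. Without replicates no value below has a test between samples, and the spread over peaks is given only as a description.

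T-box proteins are transcription factors that bind DNA through a conserved domain, and Tbr belongs to the Eomes and T-brain branch of that family. In the sea urchin embryo it is expressed in the cells that make the larval skeleton, where it takes part in the gene regulatory network of skeleton formation. Embryonic regulatory DNA is often arranged as modules, short stretches that hold several binding sites for the same or different factors. Micrococcal nuclease, used here to cut the chromatin, digests the linker between nucleosomes more readily than DNA wrapped around them.

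Most clusters were pairs. Of the 258 clusters, 206 (79.8%) held 2 peaks, 36 held 3, 12 held 4, 2 held 5 and 2 held 7. The 52 clusters of 3 or more peaks took up 180 of the 592 members. Most scaffolds with a cluster, 126 of 176, had only 1, another 33 had 2 and 17 had 3 or more.

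Clusters were short stretches, usually well under 1 kb from end to end. From the first base of the first peak to the last base of the last peak the median length was 740.5 bp, with quartiles of 482 and 1090 bp. The shortest was 288 bp and the longest 3969 bp. There were 73 clusters under 500 bp long and 14 of 2000 bp or longer, and all 258 together spanned 226 kb. From first to last summit the median was 421.5 bp for pairs, 1048.5 bp for clusters of 3 and 1541 bp for clusters of 4. Peaks filled a median of 56.7% of the cluster length, from 18.1% to 91.8%.

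Summits within clusters were most often 201 to 400 bp apart. The 334 gaps between neighbouring summits had a median of 461 bp and quartiles of 290 and 708 bp. The bins of 201 to 300 bp and 301 to 400 bp held 55 and 56 gaps, together 33.2% of all. Only 34 gaps (10.2%) were 200 bp or shorter, and none was under 122 bp. From 401 bp upwards the counts per 100 bp lay between 25 and 36. The smallest distance between the edges of neighbouring peaks was 69 bp, with a median of 242.5 bp. No listed peak was narrower than 96 bp, and none lay closer than 69 bp to the edge of the next. Whether closer summits are missing from the list as separate peaks was not tested. The closest pair, on Scaffold30 at 1099087 to 1099374, had summits 122 bp apart, with 19 and 17 ChIP fragments. Next came a pair on Scaffold1358 with summits at 174064 and 174199, 135 bp apart.

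**Figure D1:**
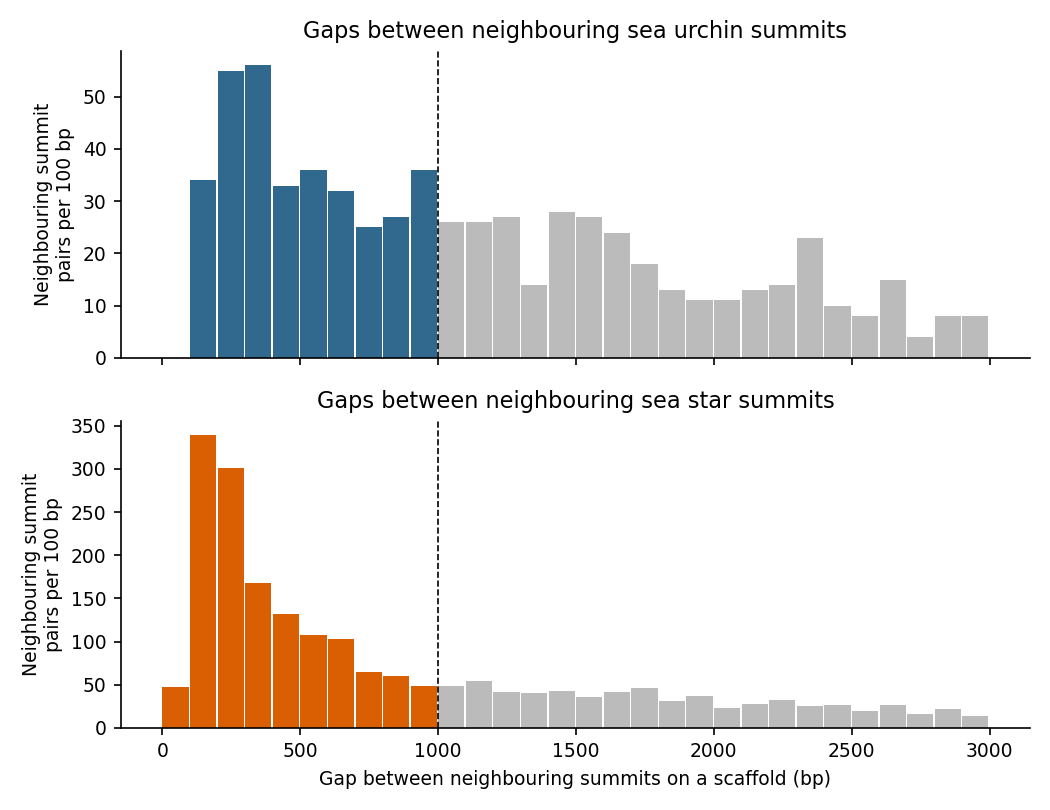
Number of neighbouring summit pairs in each 100 bp of gap, up to 3000 bp, for the sea urchin (top) and the sea star (bottom). Coloured bars are gaps of 1000 bp or less, grey bars are longer gaps, and the dashed line is the limit of the rule. Sea urchin gaps are most frequent at 201 to 400 bp (111 gaps), whereas the tallest sea star bar is at 101 to 200 bp (339 gaps).

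A larger share of the sea star gaps was short. Of its 1370 gaps of 1000 bp or less, 386 (28.2%) were 200 bp or shorter, and the median gap was 299 bp. The share at 201 to 400 bp, 34.2%, was close to that of the sea urchin. The clusters of the sea star numbered 1121, with 2491 peaks (17.8% of its list), and 86.2% of them were pairs. Their median length was 431 bp, and the smallest distance between peak edges was 1 bp. The narrowest peak was 84 bp in the sea star list and 96 bp in the sea urchin list. Species, antibody, stage, the limit of the list, the narrowest peak and the closest edges differ together, so these values are only set side by side.

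Clusters were often not the only peaks in their neighbourhood. A further summit lay on the same scaffold for 232 of the 258 clusters, at a median distance of 3629 bp from the cluster's nearer end (quartiles 1699 and 13402 bp). For 138 clusters (53.5%) it was at 5 kb or less. On Scaffold97, 1 peak lay between a 7-peak and a 4-peak cluster and was joined to neither, with its summit 1247 bp from the former and 2192 bp from the latter.

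The strength of a peak was read as ChIP fragments at its summit, which were recovered exactly from the deposited values. The scaled input is the background the peak caller set at that base from the input library, in the same unit. Fold enrichment is the ratio of the first to the second, each with 1 added. Fragments were taken as counted over 96 bp, the smallest peak width. This is less than the smallest gap of 122 bp, so neighbouring summits share no fragment as counted. The length of the sequenced DNA itself was not measured here. Since the members come from the same list that the rule used, differences from other peaks are given as descriptions.

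Members had more ChIP fragments than distant peaks, and also a higher background, while their fold enrichment was about the same. The median member had 22 ChIP fragments at its summit (quartiles 18 and 28) over a scaled input of 4.57. Peaks whose nearest summit was 1 to 5 kb away (627 peaks) also had 22 fragments over 4.57. Peaks more than 5 kb from the next (1309 peaks) had 19 over 3.51, and those alone on a scaffold (621 peaks) had 17 over 3.43. The median fold enrichment was 4.21 in members (95% order-statistic interval over peaks 4.12 to 4.38). It was 4.07, 4.11 and 4.26 in the other classes, in the same order. The intervals of these classes were 3.95 to 4.20, 4.05 to 4.17 and 4.13 to 4.38. Intervals of medians, here and below, treat peaks as independent although neighbours are correlated, and they do not stand for replicates. The median width was 157.5 bp in members (150 to 168), 149 bp at 1 to 5 kb, 123 bp beyond 5 kb and 117 bp for peaks alone on a scaffold.

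**Figure D2:**
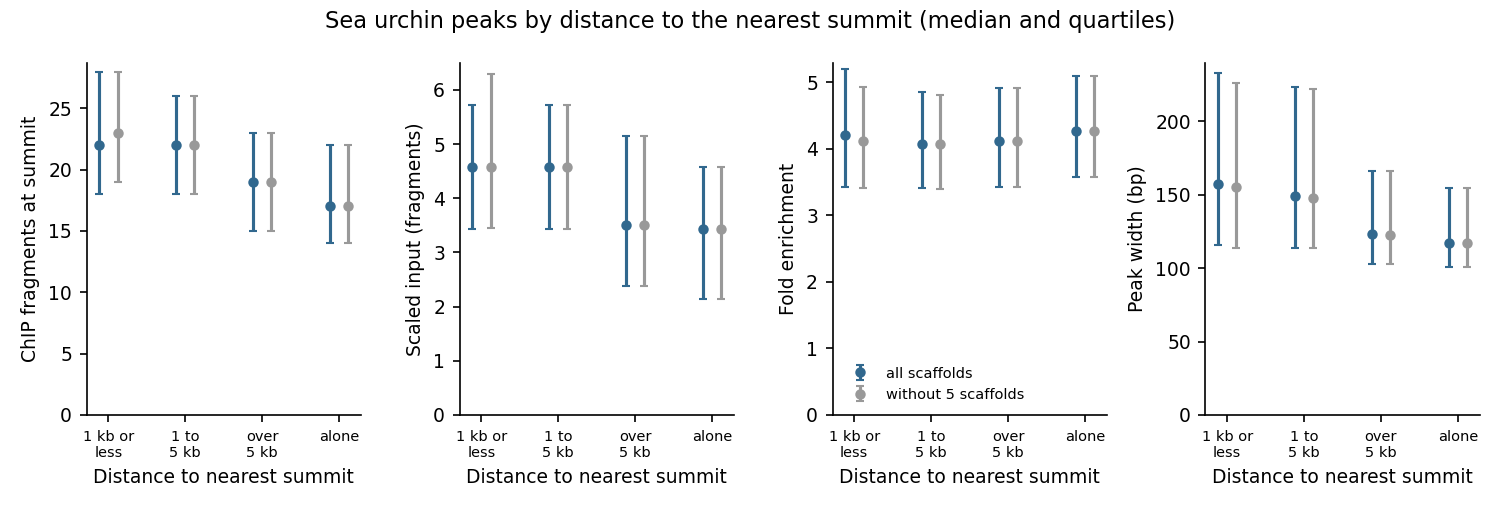
ChIP fragments at the summit, scaled input in fragments, fold enrichment and peak width in bp for sea urchin peaks grouped by the distance to the nearest summit. Points are medians and bars run from the lower to the upper quartile, with and without the 5 scaffolds of the strongest peaks. Fragments, input and width are higher in the clustered class than beyond 5 kb, while fold enrichment stays between 4.07 and 4.26 on all scaffolds.

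The very strong peaks among the members were concentrated on a few scaffolds. At least 10-fold enrichment was found in 12 of the 592 members, or 2.03%, while 0.73% of all sea urchin peaks had it. Of these 12 members, 10 lay on the scaffolds that hold the 10 peaks of highest −log10 q (the negative logarithm of the adjusted p-value). Fold enrichment and −log10 q rest on the same fragments and input, so this overlap follows in part from how the scaffolds were picked. There are 5 such scaffolds, and 3 of them, Scaffold5086, Scaffold4538 and Scaffold19667, hold 14 clusters with 44 members. Every one of the 54 peaks on the 5 scaffolds had its scaled input at the genome-wide mean of 1.51 fragments, the lowest value the caller can set. At least 5-fold enrichment was found in 28.4% of the members, against 24.2% of all peaks, and by 23.5% of the 548 members on the other scaffolds. Whether the low input on these 5 scaffolds takes part in the high fold enrichments was not tested.

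Shares past 2 further limits are given next, but the rule used the same list and nothing is read from them. The shares of all peaks include the 5 scaffolds and the members. A −log10 q of 10 or more was reached by 16.0% of members, where 8.76% of all peaks reached it. Without the 5 scaffolds the share of members was 13.9%. A width of 500 bp or more was reached by 3.21% of members, and 1.56% of all peaks were that wide. Without the 5 scaffolds 1.82% of members were (10 of 548), near the share of all peaks.

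The background of a member was usually set by input close to the summit. In 383 of the 592 members (64.7%) the scaled input corresponded to a whole number of input reads in a window of 1 fragment at the summit, with a median of 9 reads. This held for 69.0% of other peaks, with a median of 8 reads. A window of 1 kb set the background in 133 members and the genome-wide mean in 50, of which 44 lay on the 5 scaffolds. The remaining 26 were assigned to a window of 10 kb, whose step of 0.00549 fragments is so fine that a match says little. Where the window of 1 fragment set it, the scaled input of a member rested on 3 to 73 input reads, and their counting error enters the fold enrichment.

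Within a cluster the summits were mostly of similar height, though neighbouring summits farther apart differed by a like ratio of fold enrichment (given below). The highest fold enrichment of a cluster was a median of 1.31 times the lowest (quartiles 1.15 and 1.52). It was under 1.5 times in 185 of 258 clusters and 2 times or more in 17. Of the 334 pairs of neighbouring summits, 321 (96.1%) had overlapping exact Poisson 95% intervals of their fragments, which cover counting error only. The same share was not computed for neighbours farther apart, so it is not read as a trait of clusters. At a median of 22 fragments such an interval is 13.8 to 33.3, so moderate differences were not detectable at this depth. In 14 clusters (5.43%) the interval of the summit with most fragments lay wholly above that of the summit with fewest. The summit of highest fold enrichment was found at every position. In pairs the higher fold enrichment was at the first summit 105 times and at the second 101 times, where ties, here and next, count for the earlier summit. In clusters of 3 the highest was at the first, middle and last summit 12, 13 and 11 times. In the 12 clusters of 4 it was at an inner summit 5 times.

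Neighbours inside clusters resembled each other most in their background. The Spearman correlation across the 334 neighbouring pairs was 0.53 for scaled input, 0.39 for fragments, 0.32 for fold enrichment and 0.13 for width. These pairs share libraries, scaffolds and in part input windows, and a peak can be in more than 1 pair. Without the 5 scaffolds, over 304 pairs, the correlations were 0.38, 0.32, 0.20 and 0.11. On all scaffolds, neighbours 1001 to 5000 bp apart (464 pairs) had 0.28 for scaled input and 0.28 for fragments. Neighbours farther apart (1152 pairs) had 0.11 and 0.075. Without the 5 scaffolds these values were 0.21 and 0.28 over 449 pairs, and 0.098 and 0.075 over 1148 pairs. The fragment correlation was then 0.32 in clusters and 0.28 at 1001 to 5000 bp. The fold difference was of like size at all gaps, as the median ratio of higher to lower fold enrichment was 1.30 in clusters, 1.29 at 1001 to 5000 bp and 1.30 beyond. For fragments the sea star values in the same order of gaps were 0.65, 0.43 and 0.087 over 1370, 1080 and 3036 pairs.

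**Figure D3:**
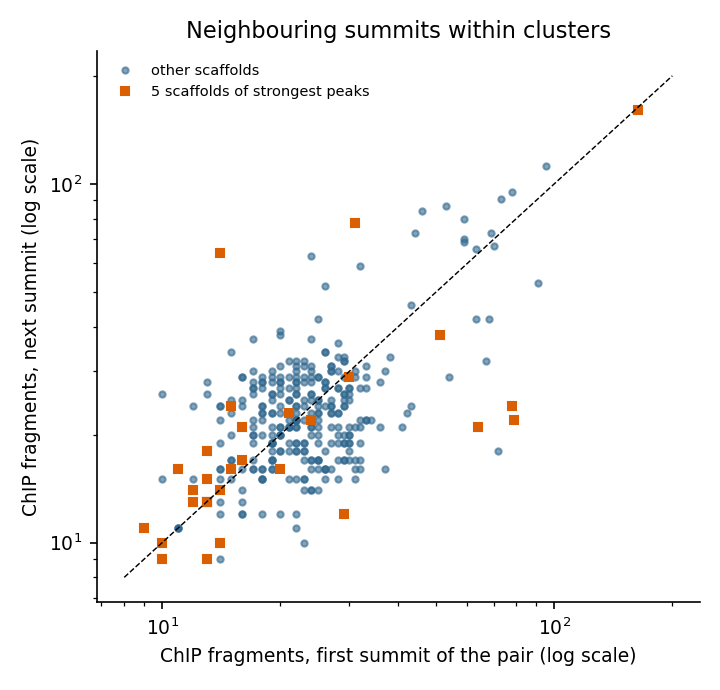
ChIP fragments at neighbouring summits within sea urchin clusters, on log scales, 334 pairs in scaffold order. Squares are pairs on the 5 scaffolds of the strongest peaks and the dashed line marks equal counts. Most pairs lie near 22 fragments on both axes, and the pair at the upper right is that of Scaffold5086 with 163 and 161 fragments.

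Larger clusters had higher fold enrichments in the sea urchin up to 4 peaks, and lower ones in the sea star. In the sea urchin the median was 4.06 in pairs (3.95 to 4.20), 4.50 in clusters of 3 (4.15 to 4.91) and 5.57 in clusters of 4 (4.39 to 5.97). It was 4.81 over the 24 peaks of the 4 clusters of 5 or more. Of the 12 clusters of 4, Scaffold5086 and Scaffold4538 hold 4. Without the 5 scaffolds the medians were 4.03, 4.40, 4.70 and 4.12. Over peaks the interval was then 3.83 to 5.71 in clusters of 4, which spans the 3.91 to 4.17 of pairs. Over the same sizes the sea star medians were 5.87, 5.50, 5.02 and 3.04.

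The median background rose with cluster size among sea star peaks, and no such order was seen among those of the sea urchin. Expressed as a multiple of the genome-wide mean, the median scaled input of sea star clusters was 2.32 in pairs, 2.63 in clusters of 3, 3.92 in clusters of 4 and 16.9 in clusters of 5 or more. The sea urchin values were 3.02, 2.75, 2.15 and 2.64, and without the 5 scaffolds they were 3.02, 3.02, 2.68 and 3.02. Peaks of the largest sea star clusters had a median of 94 fragments, and those of the largest sea urchin clusters 28. The sea star list had a cluster of 16 peaks. The part of the input in the sea star order was not tested.

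**Figure D4:**
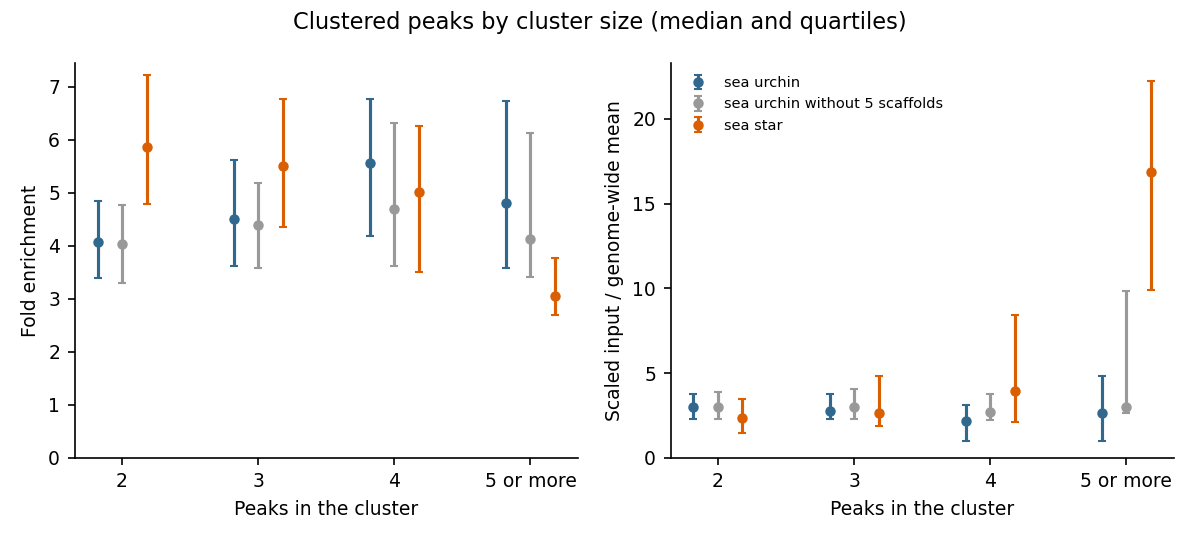
Fold enrichment (left) and scaled input as a multiple of the genome-wide mean (right) for clustered peaks, by number of peaks in the cluster. Points are medians over peaks and bars are quartiles, for the sea urchin with and without the 5 scaffolds and for the sea star. In clusters of 5 or more the sea star points stand at a fold enrichment of 3.04 and an input of 16.9 times the mean.

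Spacing within the larger clusters was uneven in most of them. Over the 52 clusters of 3 or more peaks, the largest gap was a median of 1.73 times the smallest (quartiles 1.34 and 2.92). It was under 1.5 times in 17 clusters and 3 times or more in 12. In the sea star the median ratio was 2.26.

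The longest cluster, and one of the 2 with 7 peaks, was on Scaffold97 at 58849 to 62817. Its first 4 summits followed each other at 255, 254 and 273 bp, and the next gaps were 439, 808 and 1000 bp, the last exactly at the limit of the rule. The 7 summits had 22, 21, 21, 32, 17, 26 and 52 ChIP fragments in scaffold order, over scaled inputs of 3.90 to 8.58. The last, a peak 1207 bp wide, had most fragments, with a 95% interval of 38.8 to 68.2 fragments and a fold enrichment of 6.74. The first was the weakest by fold enrichment, at 2.40. The fourth summit, with 32 fragments, had the same fold enrichment as the last, 6.74, over a lower scaled input.

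A second cluster on Scaffold97, at 65400 to 67897, had the highest fold enrichment of any cluster outside the 5 scaffolds. Across all scaffolds other than these 5, peaks that are no members reached 12.9. The 4 summits of the cluster had 43, 24, 29 and 26 fragments, with fold enrichments of 7.89, 3.18, 11.05 and 8.21. The order of fragments and of fold enrichment differed, and the scaled input ran from 1.72 at the third summit to 6.86 at the second. The fragments of these 4 summits had overlapping intervals.

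The other 7-peak cluster was on Scaffold5086 at 40982 to 43987. Its summits had 30, 29, 12, 13, 9, 11 and 16 fragments, all over a scaled input of 1.51. The first 2, at 194 bp from each other, had the most fragments, and the interval of the first (20.2 to 42.8) lay above that of the lowest (4.12 to 17.1). Scaffold5086 had more clusters than any other scaffold, 9, with 30 of its 37 peaks as members. They were spread from 6600 to 72571. The last of them, at 71158 to 72571, held the 2 strongest peaks of the list, with 163 and 161 fragments at summits 935 bp apart and fold enrichments of 65.2 and 64.4.

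Scaffold4538 had 4 clusters with 12 of its 13 peaks. The cluster at 4100 to 5516 had 31, 78 and 24 fragments, so that the middle summit rose above both sides, with an interval of 61.7 to 97.3 against 21.1 to 44.0 and 15.4 to 35.7. The same form was seen at 1614 to 2986, with 14, 64 and 21 fragments, which was also the widest contrast of any cluster, a fold ratio of 4.33. At 10543 to 11877 a pair had 51 and 38 fragments with overlapping intervals. On Scaffold19667 a pair at 293 to 1572 had 79 and 22 fragments, and these were the only peaks on that scaffold. In this pair the intervals, 62.5 to 98.5 and 13.8 to 33.3, did not overlap.

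Clusters of 5 peaks were found on Scaffold92 and Scaffold1453. On Scaffold92 at 298881 to 301519 the summits had 30, 20, 38, 33 and 27 fragments over scaled inputs of 3.13 to 5.72, with fold enrichments of 4.19 to 7.80 and overlapping intervals. On Scaffold1453 at 137968 to 140077 there were 44, 73, 91, 53 and 87 fragments. The scaled input there was 14.9 to 28.0, or 9.82 to 18.5 times the genome-wide mean, and the fold enrichments were only 2.33 to 3.52. The 2 clusters thus had the same number of peaks, while fragments and background were both higher on Scaffold1453.

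**Figure D5:**
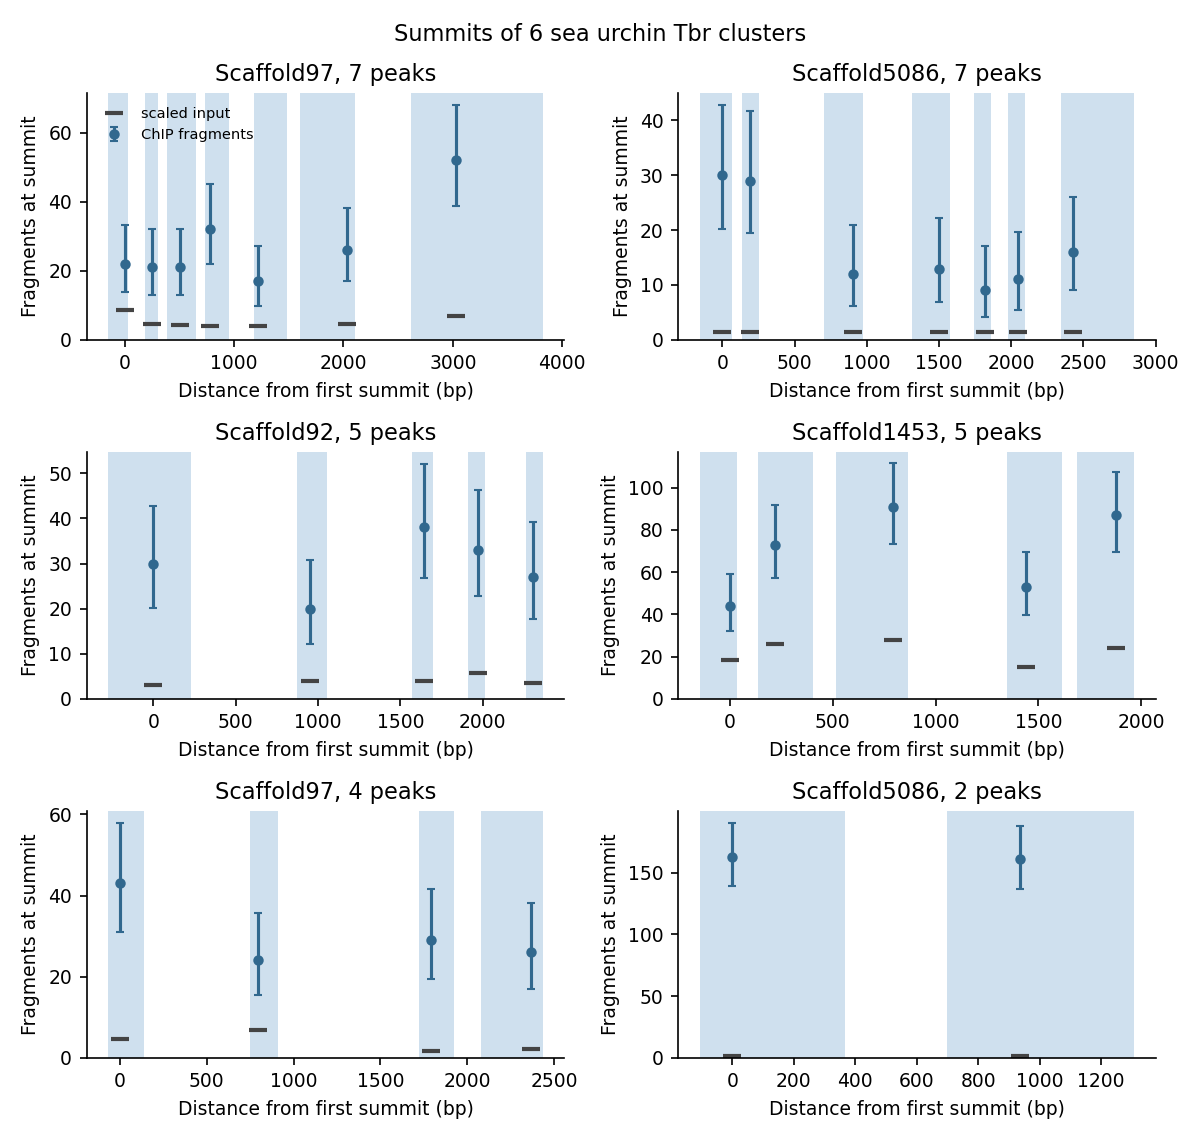
ChIP fragments (points with exact Poisson 95% intervals) and scaled input (dashes) at each summit of the 5 clusters with most peaks and of the cluster with the highest −log10 q, by distance from the first summit in bp. Shaded bands are the peak intervals. The 7 summits of Scaffold97 range from 17 to 52 fragments, and the pair of Scaffold5086 stands at 163 and 161.

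Background at a cluster's peak of highest fold enrichment was highest on Scaffold518. A cluster of 3 peaks there, at 507690 to 510097, had 78, 95 and 112 fragments over scaled inputs of 24.8, 41.7 and 37.2. Its fold enrichments were 3.07, 2.25 and 2.96. Its last peak was 1749 bp wide, more than any other member. A member on Scaffold1117 at 15268 to 15458 also had a scaled input of 41.7. At the low end, 17 clusters had a scaled input equal to the genome-wide mean at their peak of highest fold enrichment. Of these, 14 were the clusters of the 5 scaffolds.

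The next 4 clusters by highest fold enrichment outside the 5 scaffolds were on Scaffold651, Scaffold4475, Scaffold364 and Scaffold54. On Scaffold364 at 504324 to 505889 the 4 summits had 15, 17, 37 and 30 fragments, with fold enrichments of 2.60, 3.52, 7.94 and 5.58. The third had an interval of 26.1 to 51.0, above that of the first at 8.40 to 24.7. On Scaffold651 at 603297 to 604099 the first of 3 summits had 41 fragments and a fold enrichment of 10.0, and the next ones had 21 each. Their intervals, 29.4 to 55.6 and 13.0 to 32.1, overlapped. On Scaffold54 at 1124342 to 1125936 the 4 summits had 26, 28, 27 and 16 fragments. The third had the highest fold enrichment, 7.82, over the lowest scaled input, 2.58. On Scaffold4475 at 13351 to 14228 the fragments were 32, 21 and 25, and the middle summit, lowest in fragments, had the highest fold enrichment, 8.06, over a scaled input of 1.73. On Scaffold54 and Scaffold4475, then, the summit of highest fold enrichment was not the one with most fragments.

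Scaffold364 had 6 clusters, the most outside the 5 scaffolds, with 16 of its 21 peaks. They lay between 504324 and 610580. Within them the highest fragments were 37, 33, 30, 33, 36 and 25, and the 3 clusters at 588565 to 594057 followed each other closely. In the last cluster, at 610236 to 610580, both summits had 25 fragments over the same scaled input, 153 bp apart.

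On either side of the limit of 1000 bp the values were as follows. On the inner side, a pair on Scaffold1353 with summits at 144751 and 145751 had 21 and 23 fragments and fold enrichments of 5.26 and 3.57. The other pair at exactly 1000 bp was the last one of the 7-peak cluster on Scaffold97, with 26 and 52 fragments, fold enrichments of 4.84 and 6.74 and widths of 502 and 1207 bp. On the outer side, at 1001 bp, a pair on Scaffold114 had 20 and 17 fragments and fold enrichments of 3.77 and 4.06, and a pair on Scaffold68 had 22 and 24 with 4.13 and 2.96. The 62 members whose nearest summit was more than 900 bp away had a median fold enrichment of 4.31, a median of 22 fragments and a median width of 169.5 bp. For the 38 peaks at 1001 to 1100 bp the same medians were 4.20, 23.5 and 222 bp. Among members, those with a summit under 300 bp away (170 peaks) had a median fold enrichment of 3.89 (3.72 to 4.08) and a width of 131 bp. At 600 to 1000 bp (195 peaks) these were 4.41 (4.21 to 4.67) and 167 bp.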

How the data were processed

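The deposited sea urchin and sea star peak lists, each from 1 ChIP library against its input, were analysed. MACS2 2.1.0, Bowtie2 2.2.2, CASAVA 1.8 and SAMtools 0.1.19 are named by the submitters' processing notes, whereas builds and settings were not given in the sources used here. For each peak the authors deposited a fold enrichment (ratio), a −log10 p, a −log10 q and a score, which was not used. Track lines were dropped. ChIP fragments at a summit and scaled input were computed from fold enrichment and −log10 p by trying whole pileups up to 599, and the largest error in −log10 p was 4.85e-05 (sea urchin) and 0.000151 (sea star). The sea urchin list reached down to a −log10 q of 1.32 and the sea star list to a −log10 p of 5.13. Fragment length was taken as the smallest sea urchin width, 96 bp, with 0.572 fragments of scaled input per input read. A scaled input was given to the shortest window on whose whole-read steps it lay, within 0.0005 fragments or 0.02% of its value, whichever was larger. Library depth is unknown. Peaks are not replicates, so no test was made; intervals of single pileups are exact Poisson and cover counting error only. The recovery and the chaining were checked on simulated data. Named clusters were those with most peaks, highest −log10 q, highest fold enrichment outside the 5 scaffolds, extreme length, spacing or input, and the scaffold with most clusters; Scaffold364 was added after its values were seen. Members, lists and naming rule were chosen with earlier results of these data known. Python 3.11.15, numpy 2.4.6, pandas 2.3.3, scipy 1.17.1 and matplotlib 3.10.9 were used.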

Additional observations from a re-analysis of the deposited data

How the results depend on the processing

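Each of 8 results was recomputed under 8 alternatives, and 33 of the 64 values stayed within 1.5 times the reported count or inside the interval of the reported median. Leaving out the 5 scaffolds, or peaks with a scaled input of 10 times the mean or more, moved none of the 8 past these bounds. A distance limit of 500 bp gave 337 members in 159 clusters, 16 of them with 3 or more peaks, a median gap of 302 bp, a fold enrichment of 3.999 and a width of 148 bp. A limit of 2000 bp gave 908 members, 93 clusters of 3 or more and a median gap of 810 bp. Keeping only a −log10 q of at least 5 left 197 members in 86 clusters, 19 of 3 or more, with a median fold enrichment of 5.20 (5.10 in other peaks), a width of 199 bp and a scaled input of 4.002. Keeping only a fold enrichment of at least 5 left 80 members in 33 clusters, 9 of 3 or more, with a median gap of 600 bp, a fold enrichment of 6.09 (5.78 in other peaks), a width of 207 bp and a scaled input of 1.65. Members chosen by distances from edge to edge had a median gap between neighbouring summits of 560 bp. Merging intervals within 200 bp left 326 members in 148 clusters, 22 of 3 or more, with a median gap of 686.5 bp, a fold enrichment of 4.39 and a scaled input of 4.002. Stricter limits and merging leave fewer peaks by construction. The number of clusters of 3 or more peaks thus moved with the limits on distance, −log10 q and fold enrichment and with merging, whereas the median gap stayed inside its interval under the limit on −log10 q, at 504 bp. No paired analysis was possible because replicates are lacking, with 1 library per group, and no replicate could be left out. The search for T-box sequences was not run, since no genome was used here.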
